A study of Mus musculus with 9 samples.

Results

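The circadian clock genes Arntl (also written Bmal1), Npas2, Per1, Per2, Per3, Cry2, Nr1d1, Nr1d2, Dbp and Ciart were followed by RNA sequencing in the infarct border zone of the mouse heart. They were found by symbol, and all 10 had a row among the 53465 genes of the count tables and enough reads to be tested. The 9 libraries came from NOD-SCID mice, an immunodeficient strain, with 3 libraries per group. The sham group had surgery without ligation, the ligation group had a coronary artery tied, and the cell group had the same ligation followed by implantation of FOXO3-GE-MPCs. FOXO3 is named in the title and treatment field of every library of the cell group, but the source field differs for replicates 2 and 3 (FOXO4 and FOXO5). The titles were followed, and what MPCs stands for is not stated in the labels. The labels give no age, no sex, no time after surgery and no hour of the day at which hearts were taken, and they do not say whether ligated hearts without cells received an injection. A difference between groups in the hour of sampling therefore cannot be told apart from a difference in treatment.

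In the mouse clock, the BMAL1 protein made from Arntl pairs with CLOCK or with NPAS2 and switches on genes that carry an E-box. Among these are the Per, Cry and Nr1d genes, Dbp and Ciart. Their transcripts do not peak at the same hour, since Nr1d1 leads, Dbp follows and the Per genes come later, but those measured here peak in the part of the day when Arntl and Npas2 are falling or low. PER and CRY proteins and the product of Ciart (CHRONO) repress the BMAL1 complex, while the REV-ERB repressors made from Nr1d1 and Nr1d2 compete with ROR activators at ROR elements of Arntl and Npas2. DBP drives genes with a D-box. In heart muscle this clock is known to time the use of fat and glucose and the expression of ion channels.

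The RefSeq promoter table (GRCm38.p6, 250 bases before to 50 after each start) held 11 promoters of 9 of the members, all but Per2. Both strands were searched for the E-box CACGTG, the E-prime box CACGTT, the D-box TTANGTAA and the ROR element TAGGTCA, and no match overlapped another. The stretches below are shown because they hold the letters through which the loop is known to be wired, with matches in capitals and each read 5′ to 3′ on the strand of its gene. The first lies just after the downstream start of Arntl, at chr7:113207529-113207558 on the plus strand, and the others lie before their starts. They are chr3:95882247-95882364 (minus strand) for Ciart, chr11:69098763-69098808 (plus strand) for Per1, chr4:151044796-151044890 (minus strand) for Per3 and chr11:98775380-98775425 (minus strand) for Nr1d1.
Arntl: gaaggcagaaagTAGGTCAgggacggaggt
Ciart: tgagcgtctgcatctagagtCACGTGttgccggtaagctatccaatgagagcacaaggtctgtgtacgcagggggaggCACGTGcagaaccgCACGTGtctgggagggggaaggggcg
Per1: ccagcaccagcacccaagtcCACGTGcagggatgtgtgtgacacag
Per3: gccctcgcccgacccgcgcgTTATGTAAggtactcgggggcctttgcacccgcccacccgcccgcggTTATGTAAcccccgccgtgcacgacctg
Nr1d1: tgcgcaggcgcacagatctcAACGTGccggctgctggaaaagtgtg

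Ciart held 3 E-boxes within 118 bases, and Per1 held 1 in the upstream of its 2 promoters. An E-box was found in 2 of the 9 genes and in 7.15% of all 32851 promoters. The E-prime box was found in Cry2 and Nr1d1, on the strand opposite to each gene, and in 4.68% of all promoters. Per3 was the only 1 of the 9 genes searched with a D-box, in 2 copies, against 2.32% of all promoters. The ROR element was present in Arntl, starting 30 bases after its downstream start, and in 2.61% of all promoters. Npas2, Nr1d2 and Dbp held none of these letters in this window.

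**Figure D1:**
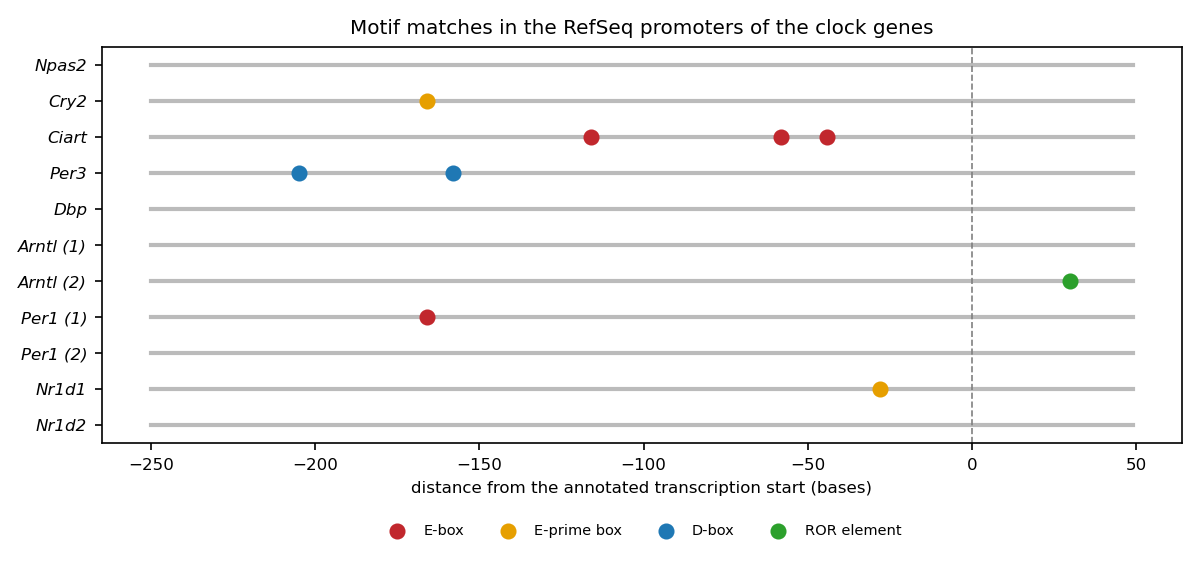
Matches to 4 clock motifs along 11 RefSeq promoters of 9 clock genes; the x axis is the distance in bases from the annotated transcription start (dashed line), grey lines are the windows searched, and dots mark the leftmost base of a match. Ciart has 3 E-boxes, Per3 has 2 D-boxes, and the ROR element of Arntl lies 30 bases after the second of its 2 starts.

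Libraries held 4549268 to 7515052 reads in genes, and mitochondrially encoded genes took 19.1% to 19.9% of them in sham, 12.5% to 13.9% in ligation and 14.3% in each cell library. Cardiomyocyte markers (6 of 6 detected) summed to 28389 to 29587 CPM (counts scaled to a common library size) in sham, 22591 to 24082 in ligation and 21611 to 22571 in the cell group. They did not all go one way after ligation: Myh6, Tnni3 and Pln fell, Ryr2 rose, and Actn2 (-0.05) and Tnnt2 (-0.06) did not pass. Macrophage markers (5 of 5 detected) summed to 226 to 256, 375 to 395 and 154 to 159 CPM, and atrial markers (3 of 3) to 404 to 448, 276 to 315 and 972 to 1019 CPM. Endothelial markers (5 of 5) summed to 1998 to 2105, 1371 to 1449 and 1463 to 1504 CPM, and smooth muscle and pericyte markers to 1388 to 1435, 970.5 to 999 and 993 to 1034 CPM. Erythroid markers, at 812 to 863, 1385 to 1508 and 625 to 646 CPM, were highest in ligation. So were the summed macrophage and mesothelial markers, and Per2, Per3, Dbp and Ciart below. Neutrophil markers were at 34.8 to 42.4, 11.5 to 18.2 and 5.40 to 5.80 CPM and mesothelial markers at 28.0 to 38.2, 156 to 195 and 131 to 140.0 CPM. Fibroblast markers were at 1476 to 1518, 1962 to 2029 and 1965 to 2040.0 CPM. Fast skeletal muscle markers summed to 16.9 to 23.4, 30.6 to 34.5 and 34.6 to 38.6 CPM, mostly from Mybpc2, which rose in both steps. Tnnt3 (group means of 0.819, 3.01 and 0.665 CPM), Pvalb (0.595, 3.17 and 0.0951 CPM) and Myh4 (0, 1.29 and 0 CPM) were instead highest in ligation. These 3 genes had few reads per library, 2 to 25, 0 to 30 and 0 to 15, and Myh4 had too few to be tested. Brown fat markers summed to 36.4 to 41.2, 49.7 to 50.5 and 42.5 to 50.6 CPM, but went both ways after ligation: Adipoq, which all fat cells express, rose from a mean of 1.44 to 21.7 CPM, Cidea fell from 37.8 to 28.6 CPM, and Ucp1 had at most 1 read in a library. No marker of these lists was at 0 in all libraries, and the part of these shifts in the results below was not tested. In bulk tissue, fewer cells of a type and less RNA per cell cannot be told apart. Headers of sham replicates 1 and 2 share a name stem, as do those of ligation replicates 2 and 3, and nothing in the labels says that libraries came from separate animals, so p-values measure only the spread between these libraries.

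Levels of the members can be set side by side only per length, as CPM per kilobase of annotated exon. In sham hearts Nr1d1 was highest, at 33.2 ± 0.887 (SD, n = 3), followed by Nr1d2 at 21.5 ± 1.61 and Dbp at 21.2 ± 0.771, whose ranges overlapped. Per1 came next at 8.34 ± 0.846, then Per2, Cry2 and Ciart with overlapping neighbours between 3.99 and 4.46, and Per3 at 3.22 ± 0.102. Arntl at 1.43 ± 0.178 and Npas2 at 0.738 ± 0.222 were lowest. After ligation Dbp, at 26.9 ± 2.01, stood second and overlapped Nr1d1 at 28.9 ± 2.24, and Arntl at 0.413 ± 0.0444 overlapped Npas2 at 0.329 ± 0.145. In the cell group Nr1d1, at 23.5 ± 0.777, overlapped Nr1d2 at 22.1 ± 1.01, with Dbp below both at 18.6 ± 0.780. The E-box-driven repressors and Dbp were thus the abundant members in every group, and the 2 activators the scarce ones.

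The first comparison asked which clock transcripts differed between ligated and sham hearts. Both activators fell and 5 of the 8 E-box-driven genes rose: Per1, Per2, Per3, Dbp and Ciart. Nr1d1 fell as well, in the direction of Arntl, and Cry2 and Nr1d2 did not pass. In all, 8 of the 10 members passed an adjusted p of 0.05 in edgeR's quasi-likelihood test (5 higher, 3 lower), beside 38.2% of 13825 tested genes (20.1% higher, 18% lower). The median log2 fold change of the members was 0.31, against 0.01 for all tested genes. With library totals in place of TMM scaling, which shifts the median of all genes by 0.19, 7 members were higher and 1 lower, beside 4963 and 1347 of all genes.

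Arntl (ENSMUSG00000055116), the non-redundant activator of the loop, was at 11.7, 9.20 and 11.2 CPM in the sham libraries, at 3.40, 3.18 and 2.74 CPM after ligation and at 5.94, 5.26 and 7.62 CPM with cells. The 3 groups did not overlap, with ligation lowest and sham highest. Arntl was 3.48-fold lower after ligation than in sham (log2 fold change -1.80, SE 0.228, edgeR adjusted p 2.34e-06), which was the largest change of any member. These levels rest on 16 to 71 reads per library. Npas2 (ENSMUSG00000026077), the partner that can replace CLOCK, was rarer still, with 5 to 29 reads. Its level was 3.55, 2.47 and 4.59 CPM in sham, 1.06, 1.30 and 2.37 CPM after ligation and 1.70, 2.08 and 3.16 CPM with cells. Sham and ligation were apart by a narrow margin, and the cell group overlapped both. The fall after ligation (-1.09, SE 0.385, edgeR adjusted p 0.0305) was lost with library totals in place of TMM scaling (0.0640), with DESeq2 (0.0838) and without sham replicate 1 or 3 or ligation replicate 1 or 2 (0.0641 to 0.154).

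**Figure D2:**
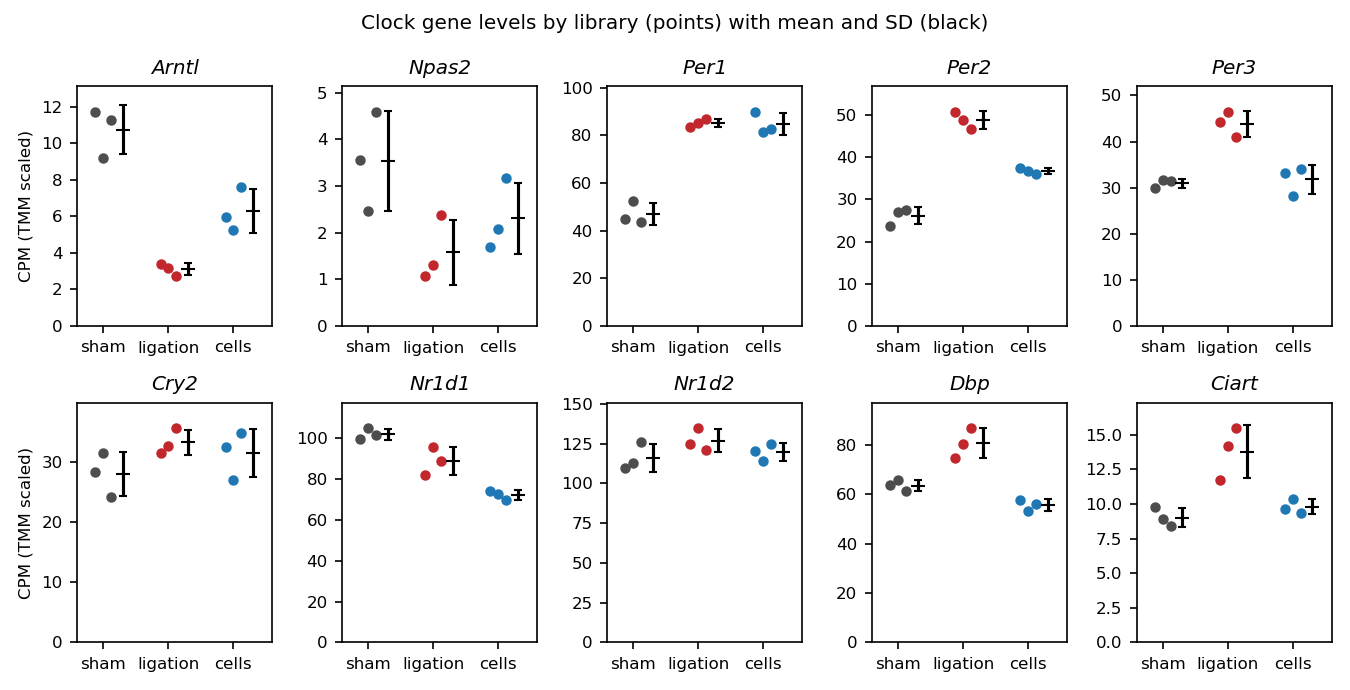
CPM of the 10 clock genes (y axes, from 0) in the 3 sham, 3 ligation and 3 cell libraries; points are libraries, and black marks with bars are the mean and SD. Arntl is lowest in the ligation libraries (2.74 to 3.40 CPM), while Per1 is as high with cells as after ligation and Per2, Per3, Dbp and Ciart peak in ligation.

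Among the repressors, Per1 (ENSMUSG00000020893), which also answers to glucocorticoid and cyclic AMP signals, was at 44.7, 52.4 and 43.7 CPM in sham and at 83.3, 85.0 and 86.9 CPM after ligation. Every ligation library was far above every sham library, a 1.81-fold rise (log2 0.86, SE 0.0757, edgeR adjusted p 1.37e-08). Per2 (ENSMUSG00000055866), its close relative, stood at 23.8, 27.0 and 27.6 CPM in sham and 50.8, 48.9 and 46.8 CPM after ligation, a 1.86-fold rise (log2 0.90, SE 0.0859, edgeR adjusted p 4.43e-08). Per3 (ENSMUSG00000028957), the family member dispensable for rhythm, rose less. It went from 29.8, 31.6 and 31.5 CPM to 44.2, 46.5 and 40.9 CPM, again without overlap (log2 0.50, SE 0.0922, edgeR adjusted p 0.000203).

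Ciart (ENSMUSG00000038550), the gene with 3 E-boxes shown above, was at 9.76, 8.87 and 8.39 CPM in sham and 11.7, 14.1 and 15.5 CPM after ligation. The groups were apart (log2 0.63, SE 0.158, edgeR adjusted p 0.00319). Cry2 (ENSMUSG00000068742), which stabilises PER and blocks BMAL1, was at 28.2, 31.4 and 24.1 CPM in sham and 31.5, 32.6 and 35.5 CPM after ligation. The ranges only just separated, and the difference of 0.26 did not pass (95% interval 0.02 to 0.50 before adjustment, edgeR adjusted p 0.0775). It did pass with library totals alone (0.45, adjusted p 0.00332) and without sham replicate 2 (0.35, adjusted p 0.0350).

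The REV-ERB genes were the most abundant repressors, and only 1 of them passed. Nr1d1 (ENSMUSG00000020889) was at 99.6, 105 and 101.7 CPM in sham and at 82.0, 95.8 and 88.9 CPM after ligation, lower in every ligation library (log2 -0.19, SE 0.0661, edgeR adjusted p 0.0245). This small fall depended on the scaling: with library totals alone it was -0.01 (adjusted p 0.949), and it also missed the threshold with DESeq2 (0.0636) and without sham replicate 2 (0.0724) or ligation replicate 1 (0.0959). Nr1d2 (ENSMUSG00000021775), its paralog, was at 109.7, 113 and 126 CPM in sham and 125, 135 and 121 CPM after ligation, with overlapping groups. Its difference of 0.13 (95% interval -0.01 to 0.26, edgeR adjusted p 0.153) passed only with library totals alone (0.31, adjusted p 0.000709) and without sham replicate 3 (0.19, adjusted p 0.0442), among the alternatives run. Set against the shift of 0.19 in the median of all genes that library totals bring, Nr1d1 lay below and Nr1d2 above the median gene under both scalings.

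Dbp (ENSMUSG00000059824), the activator at D-boxes, was at 63.6, 65.7 and 61.1 CPM in sham and 74.6, 80.4 and 86.7 CPM after ligation. The groups were apart (log2 0.35, SE 0.0704, edgeR adjusted p 0.000470). Part of the exon sequence of Dbp (18%) overlaps Sphk2 and part of that of Nr1d1 (8.55%) overlaps Thra, each on the other strand, and the strand setting of the counts is not given in the sources used here. Sphk2 differed by -0.08 between ligation and sham (edgeR adjusted p 0.644) and Thra, a thyroid hormone receptor gene, fell by 0.21 (edgeR adjusted p 0.0196). The contribution of shared reads to either member was not tested.

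**Figure D3:**
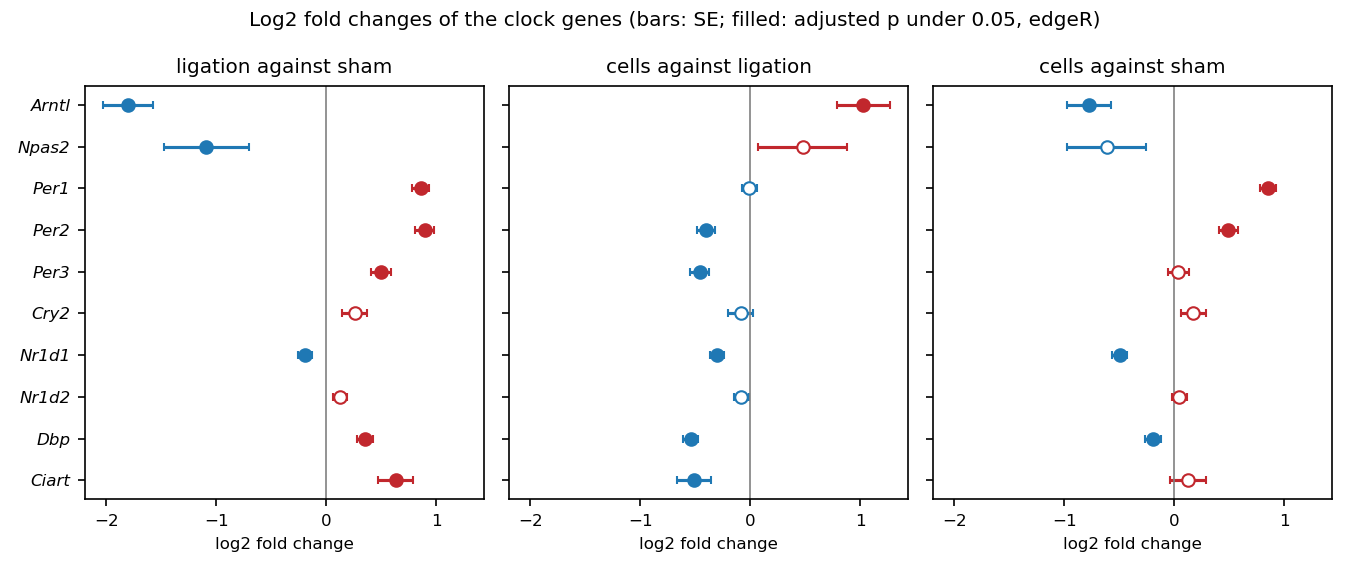
Log2 fold changes of the 10 clock genes (rows) in the 3 comparisons (panels); bars are standard errors, red is higher and blue lower in the first-named group, and filled points passed an edgeR adjusted p of 0.05. In the ligation panel Arntl (-1.80) and Npas2 (-1.09) lie left of 0 and the Per genes, Dbp and Ciart right of it, with Nr1d1 at -0.19.

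The second comparison set ligated hearts with implanted cells against ligated hearts without them. Arntl rose, and Per2, Per3, Nr1d1, Dbp and Ciart fell, so that 6 of 10 members passed (1 higher, 5 lower), beside 9.87% of all tested genes (4.19% higher, 5.69% lower). With library totals these were 1 and 5, beside 438 and 923 of all genes. All 8 E-box-driven genes had a negative log2 fold change and both activators a positive one, but Per1 (-0.01) and Cry2 (-0.09) turned positive when single libraries were left out. The median over the members was -0.20, against 0.00 for all genes. The ligation libraries enter this comparison and the first with opposite signs, so the opposite directions of a gene in the 2 comparisons are not separate evidence.

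Arntl was 2.04-fold higher with cells than after ligation alone (log2 1.03, SE 0.241, edgeR adjusted p 0.00775). Without cell replicate 3, its highest library in that group, the difference was 0.86 and did not pass (edgeR adjusted p 0.0543). Npas2 was 0.48 higher and did not pass (95% interval -0.36 to 1.32, edgeR adjusted p 0.538).

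Of the Per genes, Per2 and Per3 fell and Per1 did not pass. Per1 was at 89.8, 81.2 and 82.8 CPM with cells, a wider range that reached above and below that of ligation (83.3, 85.0 and 86.9 CPM). The groups overlapped, with a log2 difference of -0.01 (95% interval -0.16 to 0.14, edgeR adjusted p 0.954). Per2 was at 37.5, 36.7 and 36.1 CPM with cells, between sham and ligation with no overlap on either side (-0.41 against ligation, SE 0.0804, edgeR adjusted p 0.00190). Per3 was at 33.1, 28.2 and 34.1 CPM, overlapping sham and below every ligation library (-0.46, SE 0.0900, edgeR adjusted p 0.00163).

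Dbp showed the firmest fall with cells, at 57.6, 53.0 and 56.0 CPM, below every ligation library and also below every sham library (-0.54 against ligation, SE 0.0702, edgeR adjusted p 1.95e-05). Nr1d1 was at 74.4, 72.6 and 69.7 CPM, below every library of the other groups (-0.30 against ligation, SE 0.0670, edgeR adjusted p 0.00472). Ciart was at 9.62, 10.4 and 9.34 CPM, below every ligation library (-0.51, SE 0.152, edgeR adjusted p 0.0364). That call was lost without ligation replicate 2 or 3 or any single cell library (adjusted p 0.0520 to 0.195), with DESeq2 (0.206) and with no filter on low counts (0.0508). A block for replicate number, or summing libraries that share a header stem, ended it as well. Cry2 (32.4, 27.0 and 34.8 CPM) and Nr1d2 (120.1, 114 and 125 CPM) overlapped the ligation group and did not pass, at -0.09 (95% interval -0.32 to 0.14) and -0.08 (-0.22 to 0.06).

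In the third comparison, the cell group differed from sham in 5 of 10 members (2 higher, 3 lower), beside 40.9% of tested genes (21% higher, 20% lower), so the share of members was close to that of all genes. With library totals 4 members were higher and 2 lower, beside 4615 and 1697 of all genes, since Cry2 (0.33) and Nr1d2 (0.20) then passed and Dbp did not. Per1 and Per2 were higher than in sham by 0.85 (SE 0.0752) and 0.49 (SE 0.0876), with edgeR adjusted p-values of 1.30e-08 and 0.000132. Arntl was lower by 0.77 (SE 0.200, edgeR adjusted p 0.00402) and Nr1d1 was 1.41-fold lower, with a log2 fold change of -0.50 (SE 0.0667, edgeR adjusted p 4.34e-06). The fall of Dbp (-0.19, edgeR adjusted p 0.0386) was at the edge of the threshold. It was lost with library totals (-0.03, adjusted p 0.749), DESeq2 (0.143) or no filter on low counts (0.0894), and without ligation replicate 2, sham replicate 1 or 2, or any single cell library (0.0504 to 0.135). The replicate block and the summing of libraries that share a header stem also ended it. Per3 (0.04, 95% interval -0.16 to 0.23), Ciart (0.12, -0.22 to 0.46), Cry2 (0.17, -0.07 to 0.41), Nr1d2 (0.04, -0.10 to 0.18) and Npas2 (-0.61, -1.37 to 0.14) did not pass.

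Whether genes of roughly opposite phase moved in opposite directions was read by sign against Arntl, with the 8 E-box-driven genes counted together although their peaks are hours apart. After ligation, 7 of the 8 E-box-driven genes had the opposite sign to Arntl, and 5 of these passed, with Nr1d1 the exception; of all tested genes, 50.9% had a sign opposite to Arntl. With cells against ligation the count was 8 of 8, beside 49.7% of all tested genes, and 5 of the 8 passed. With cells against sham it was 6 of 8, beside 49.3% of all tested genes, and only Per1 and Per2 of those passed, while Nr1d1 and Dbp fell together with Arntl. The counts of opposite signs, 7, 8 and 6, were the same with library totals and with DESeq2 size factors, whereas with library totals Cry2 and Nr1d2 passed as well in both comparisons against sham. Leaving out single libraries, a check of these counts added after seeing the data, lowered the count of opposite signs in 4 cases. With cells against ligation, 6 of 8 remained without cell replicate 2 (Per1 and Cry2 turned) and 7 without ligation replicate 3 or cell replicate 3 (Per1 turned), and against sham 5 remained without cell replicate 3 (Per3 turned). The order of the groups differed between members: Nr1d1 was lowest in the cell group, where Arntl and Per2 were intermediate and Per1 overlapped ligation.

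Ratios within a library do not depend on how libraries are scaled. The log2 ratio of Arntl to Nr1d1 counts was -3.09, -3.51 and -3.18 in sham, -4.59, -4.92 and -5.02 after ligation and -3.65, -3.79 and -3.19 with cells. Ligation was below all other libraries, and the cell group overlapped sham. For Arntl to Dbp it was -2.44, -2.84 and -2.44 in sham, -4.46, -4.66 and -4.98 after ligation and -3.28, -3.33 and -2.88 with cells. There the 3 groups were apart, the cell group lying below sham by a small margin. The log2 ratio of Npas2 to Nr1d1 was -4.81, -5.41 and -4.47 in sham, -6.27, -6.21 and -5.23 after ligation and -5.45, -5.13 and -4.46 with cells, so all 3 groups overlapped, unlike in the Arntl ratios. The ratio of the 2 activators, Arntl to Npas2, ranged from 0.21 to 1.68 after ligation and from 1.29 to 1.90 in sham, with overlap.

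**Figure D4:**
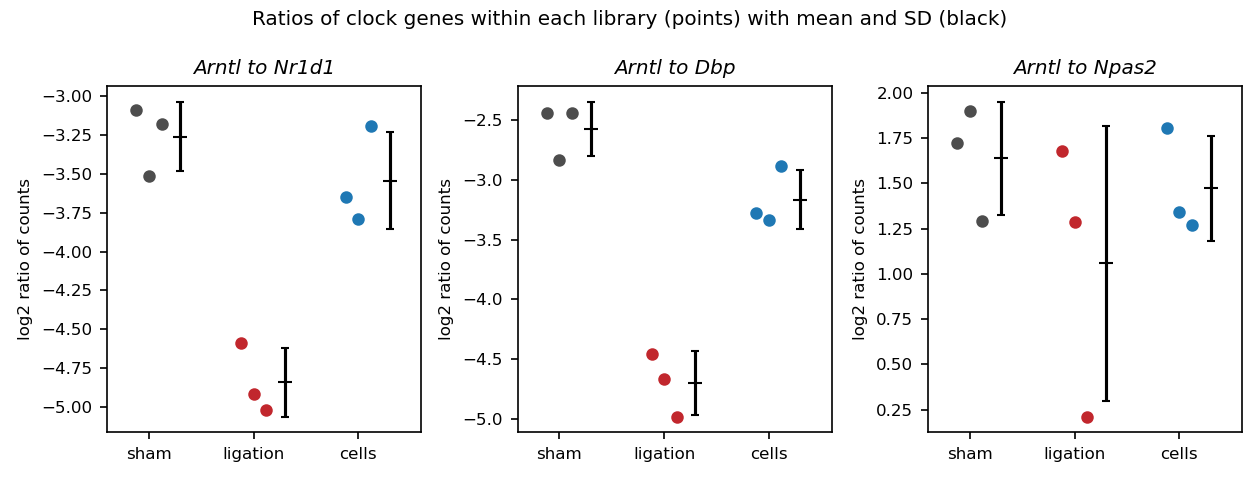
Log2 ratios of read counts (y axes) of Arntl to Nr1d1, to Dbp and to Npas2 in each library, by group; points are libraries, and black marks with bars are the mean and SD. The ligation libraries lie lowest in the first and second panels (-4.59 to -5.02 and -4.46 to -4.98) and overlap the others in the third.

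Libraries of a group differed little in most clock genes. The pooled SD of log2 CPM within groups was smallest for Nr1d1 (0.0736), Per2 (0.0754) and Dbp (0.0775) and largest for Arntl (0.201) and Npas2 (0.443), the members with the fewest reads. Among tested genes within 2-fold of the same level, the share with a smaller SD ran from 13.3% for Per2 to 77.2% for Cry2, and was 29.1% for Arntl and 63.9% for Npas2. Spread within groups was therefore in the usual range for genes of that level.

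Genes most like Arntl and Nr1d1 were ranked by Pearson r of log2 CPM over the 9 libraries, which share 3 group means, among 11129 other named genes of at least 5 CPM. For Arntl these were Tpm2 (r = 0.979), a tropomyosin, Gmnn (0.975), the replication licensing inhibitor geminin, Hspd1 (0.973), a mitochondrial chaperonin, Trp53i11 (0.972) and Hadhb (0.972), a subunit of the fat-oxidising trifunctional protein. They fell after ligation by less than Arntl, with log2 fold changes from -0.75 for Gmnn to -0.41 for Hadhb. For Nr1d1 they were Notch4 (0.984), an endothelial Notch receptor, Pfkfb3 (0.981), which stimulates glycolysis, Tapbp (0.967), Uba7 (0.962) and Slc43a3 (0.961). None of the 10 was a clock gene of the lists used here, and r is given as a description only.

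The rest of the clock was read from 19 genes, of which 17 were tested. After ligation 7 rose and 2 fell, and 8 did not pass (median log2 fold change 0.20), so 52.9% were called, beside 38.2% of all tested genes. Bhlhe40 and Bhlhe41, the DEC repressors that sit on E-boxes, rose by 0.78 and 0.55 (edgeR adjusted p 5.25e-09 and 0.000355). Tef, a D-box activator related to Dbp, went from 154 ± 4.62 CPM (SD, n = 3) in sham to 195 ± 7.84 (log2 0.34, edgeR adjusted p 6.49e-05). Rises were also seen in Fbxw11 (0.41) and Csnk1d (0.33), which tag and mark PER for degradation. Timeless fell by 0.38. With library totals 11 of the 17 were higher and 0 lower, beside 4963 and 1347 of all genes. Clock itself was at 46.3 ± 1.04 CPM in sham and 39.6 ± 3.28 after ligation and missed the threshold (-0.22, edgeR adjusted p 0.0509).

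With cells against ligation, 2 of those 17 passed: Clock rose by 0.31 (edgeR adjusted p 0.0259) and Tef fell by 0.20 (edgeR adjusted p 0.0310). That is 11.8% of the list, near the 9.87% of all tested genes. Without ligation replicate 3, or without cell replicate 3, neither passed, and 1 passed without any other single library of those groups. Without ligation replicate 3 or cell replicate 3, calls over all genes also fell, from 1365 to 962 and 1026. Against sham, 9 of 17 were higher with cells and 0 lower, beside 21% and 20% of all tested genes. Bhlhe40 was 0.86 higher, Cry1, the other cryptochrome, 0.52 higher and Rora 0.30 higher (edgeR adjusted p 8.04e-10, 0.0113 and 0.0239). The 9 fell to 5 without sham replicate 1 and with DESeq2, where calls over all genes fell from 5661 to 5060 and 4411.

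Clock outputs known from heart or many tissues numbered 25, with 24 tested. After ligation 9 rose and 6 fell, with a median of 0.06, and 62.5% were thus called, beside 38.2% of all tested genes. With library totals 15 were higher and 4 lower, beside 4963 and 1347 of all genes. Wee1, a cell cycle kinase under E-box control, rose by 1.28, Ppp1r3c, a glycogen-targeting subunit, by 1.19 and Tsc22d3, also a glucocorticoid target, by 0.99 (edgeR adjusted p 1.35e-06, 3.44e-13 and 6.14e-11). Ucp3 fell by 1.52 and Dgat2, which makes triglyceride, fell by 0.89 (edgeR adjusted p 5.38e-06 and 4.20e-11). Usp2, an output that cycles with Dbp in many tissues, did not pass in any comparison (-0.03, -0.11 and -0.15). With cells against ligation 5 rose and 5 fell, beside 4.19% and 5.69% of all tested genes, with the largest rises in Ucp3 (0.98) and Pdk4 (0.78), the kinase that holds back glucose oxidation. Pdk4 was at 93.4 ± 4.04 CPM in sham, 97.6 ± 7.02 after ligation and 167 ± 2.77 with cells. The 10 calls fell to 5 without ligation replicate 3 or cell replicate 3 and to 6 without cell replicate 1. Calls over all genes fell there too, from 1365 to 962, 1026 and 1041. Against sham 12 rose and 8 fell, beside 21% and 20% of all tested genes. With library totals 13 were higher and 2 lower, beside 4615 and 1697 of all genes.

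Per1 can also be switched on outside the loop by glucocorticoids and by the signals that induce immediate-early genes. Of 15 glucocorticoid-response genes, 14 were tested, and after ligation 9 rose and 2 fell (median 0.30), beside 20.1% and 18% of all tested genes. With cells against ligation 3 rose and 5 fell (median -0.13), beside 4.19% and 5.69% of all genes, and 3 and 3 passed with DESeq2 size factors. Against sham 6 rose and 3 fell, beside 21% and 20% of all genes (9 and 2 with library totals, beside 4615 and 1697 of all genes). The 8 calls of cells against ligation fell to 5 with DESeq2, without ligation replicate 1 or 3, and without cell replicate 1 or 3. In that order, calls over all genes fell from 1365 to 935, 1252, 962, 1041 and 1026. Fkbp5 went from 42.9 ± 6.81 CPM (SD, n = 3) in sham to 104.6 ± 8.28 after ligation and 48.5 ± 1.52 with cells, and Zbtb16 from 25.1 ± 1.70 to 50.1 ± 8.46 and 14.4 ± 2.14. The 2 genes that fell after ligation were Sgk1 (126 ± 0.797 to 90.6 ± 3.83 CPM, then 114.6 ± 3.03 with cells) and the metallothionein gene Mt1 (358 ± 10.3 to 272 ± 5.65 CPM, then 244 ± 5.83). Those that rose with cells against ligation were Dusp1 (0.82), Errfi1 (0.78) and Sgk1 (0.34). Tsc22d3 was at 98.9 ± 6.32, 197 ± 11.8 and 183 ± 0.653 CPM, and like Per1 it did not pass between cells and ligation (-0.10, edgeR adjusted p 0.342). Of 17 immediate-early genes 10 rose after ligation, 14 rose with cells against ligation and 15 against sham, with 0 falling in each (medians 0.52, 0.77 and 1.30), beside 20.1%, 4.19% and 21% of all tested genes that were higher. Egr1 was at 18.3 ± 3.34, 27.3 ± 2.95 and 127 ± 6.86 CPM and Fos at 3.10 ± 0.482, 8.83 ± 1.04 and 24.9 ± 0.999 CPM. The part of either signal in the clock genes was not tested. Tsc22d3, Klf9 and Klf15 stand in both the output and the glucocorticoid list, and Dusp1 in both the glucocorticoid and the immediate-early list.

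**Figure D5:**
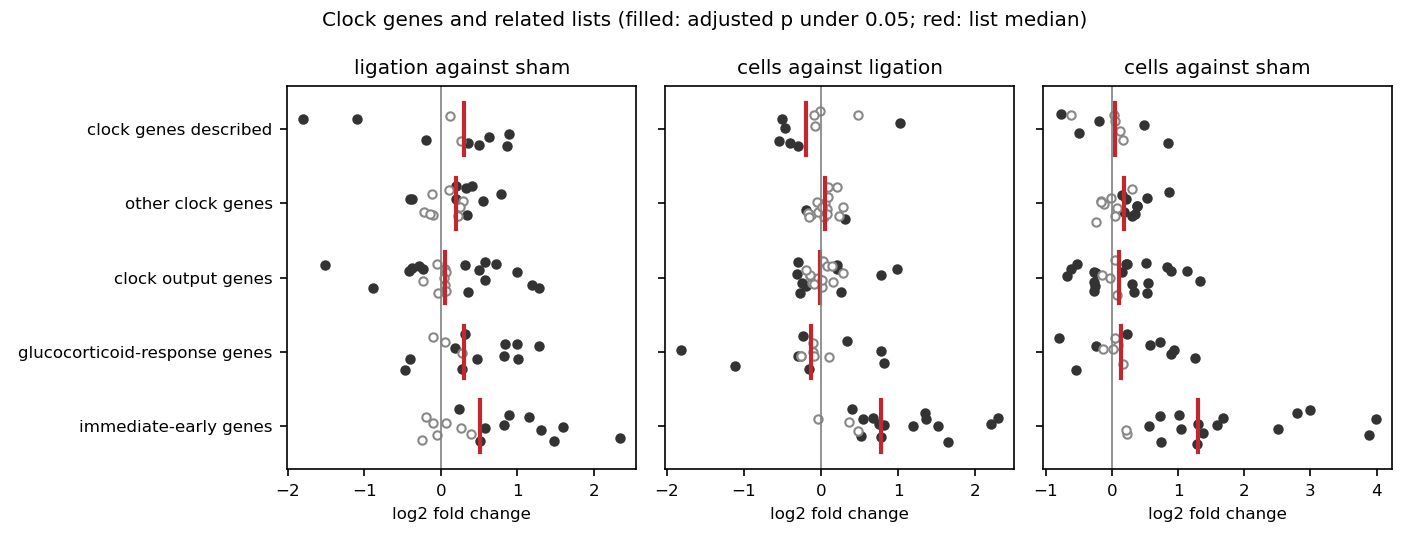
Log2 fold changes (x axes) of the tested genes of 5 lists (rows) in the 3 comparisons (panels); filled points passed an edgeR adjusted p of 0.05, open points did not, red bars are list medians, and vertical scatter is for display. The clock genes spread to both sides of 0 after ligation (median 0.31), whereas the immediate-early genes lie to the right in every panel (medians 0.52, 0.77 and 1.30).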

How the data were processed

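RNA of 9 heart libraries was sequenced after TRIzol extraction and NEBNext Ultra library preparation, per the labels' protocols. The authors deposited raw counts of reads for each Ensembl gene, without normalization. The genome build is mm10, per the submitters' processing notes. The aligner, counter, strand setting and annotation release are not given in the sources used here. Reads in no gene (4.14% to 4.91%) and ambiguous reads (8.09% to 8.72%) stayed out of the library sizes.

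Symbols, exon lengths and overlaps came from GENCODE M21 (GRCm38) and matched 53274 of 53465 IDs. Groups were taken from the titles. Counts were fitted with edgeR 4.0.16 in R 4.3.3 (filterByExpr, TMM, glmQLFit, glmQLFTest) in 1 model with 3 group means, all 9 libraries and 6 residual degrees of freedom. Two-sided p-values were adjusted over 13825 tested genes by the Benjamini-Hochberg method. CPM use TMM-scaled library sizes, SE is the fold change divided by the square root of F, and 95% intervals use the moderated degrees of freedom. With 3 reads equal to 0.374 to 0.638 CPM, depth limits Npas2 and Arntl most. Alternatives were DESeq2 1.42.0, limma-voom 3.58.1, other scalings and filters, 2-group fits, a replicate block, removal of mitochondrial genes and leaving out each library. Summing libraries that share a header stem was added after seeing the data. The pipeline was tested on simulated data.

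The members and lists were chosen with earlier results of these data known. Named genes were all members, up to 6 genes per list and comparison with the largest changes past the threshold, further list genes needed for a statement, chosen after their values were seen, and the 5 genes most like Arntl and Nr1d1. Not every list gene that was counted is named. Promoters came from RefSeq (GRCm38.p6). Figures were drawn with matplotlib 3.10.9.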

Additional observations from a re-analysis of the deposited data

How the results depend on the processing

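Counts of clock genes past the threshold stayed within 1.5 times of 8, 6 and 5 under each alternative run. With DESeq2, calls over all genes were 4131, 935 and 4411, from 5277, 1365 and 5661. With any 1 library left out, calls over all genes ranged over 4487 to 5459, 951 to 1398 and 5055 to 5746. Those of clock genes then ranged over 6 to 8, 4 to 6 and 4 to 5. The replicate block gave 8, 5 and 4, ending the calls of Ciart with cells against ligation (adjusted p 0.0604) and of Dbp against sham (0.0535). Same-numbered libraries deviated together at correlations of -0.119 to 0.0856, so the numbers were not taken as pairs. Summing libraries that share a header stem, chosen after seeing the data, gave 8, 5 and 4 and ended the same 2 calls (0.0869 and 0.0505). Signs turned only for members that had not passed: without single libraries, the log2 fold change with cells against ligation ran from -0.0549 to 0.0183 for Per1 (positive without ligation replicate 3, cell replicate 2 or cell replicate 3) and from -0.170 to 0.00820 for Cry2 (positive without cell replicate 2), and that of Per3 against sham ran from -0.0151 (without cell replicate 3) to 0.117. The count of other clock genes with cells against ligation was 1 in place of 2 with DESeq2, with the block and with stems summed, and 0 to 2 without single libraries. Against sham it was 5 with DESeq2 and 5 to 9 without single libraries. With cells against ligation, output genes numbered 5 to 10 and glucocorticoid-response genes 5 to 7 without single libraries, and the latter 5 with DESeq2. The shorter ROR half-site AGGTCA matched 3 member genes in place of 1, and 16.3% of all promoters in place of 2.61%. Why these calls were lost was not tested. Npas2, with 5 to 29 reads per library, is limited most by depth.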
